A study of Mus musculus with 6 samples.

Results

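The Dmrt family is the set of mouse genes that encode DM-domain transcription factors, and the members described here are the 7 autosomal genes *Dmrt1*, *Dmrt2*, *Dmrt3*, *Dmrta1*, *Dmrta2*, *Dmrtb1* and *Dmrtc2*, chosen by gene name from the 53657 gene names counted. They were measured by RNA-seq in adult undifferentiated spermatogonia (A_undiff), the population that holds the spermatogonial stem cells, from 3 WT and 3 MUT mice. All 6 mice carried *Gfra1-creERT2* and a *tdTomato* reporter, were given tamoxifen, and had their MCAM-bright, tdTomato-positive testis cells sorted 3 months later. MUT mice were also heterozygous for *Hras* G12V, a hyperactive allele that Cre switches on in place of one normal copy, while WT mice were littermates without that allele, on the same mixed strain background. Cre is driven by the *Gfra1* promoter, so that recombination starts only in *Gfra1*-expressing cells, and tdTomato reports recombination of the reporter; the share of sorted MUT cells with active G12V was measured by the study from sequence reads that are not used here. The comparison of MUT with WT asks whether hyperactive *Hras* alters transcript levels in these cells.

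DM-domain proteins bind DNA through an intertwined zinc module, in which cysteines and histidines hold a pair of zinc ions. The family is best known for sex determination and for the maintenance of the gonad, but several members act chiefly outside it. In the testis, *Dmrt1* keeps spermatogonia from entering meiosis too early and keeps Sertoli cells male, *Dmrtb1* acts at the passage from spermatogonial divisions to meiosis, and *Dmrtc2* is needed by spermatocytes in meiotic prophase. *Dmrt2* is known from the somites, *Dmrt3* from spinal cord interneurons, and *Dmrta1* and *Dmrta2* from the developing brain.

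The sequence the members share is shown first, because it defines the family and shows which genes are close enough to be compared as relatives. The stretch printed here encodes the zinc module, and capitals mark the 8 cysteine and histidine codons, found by their spacing once in each coding sequence (GENCODE vM21 transcripts, GRCm38). It lies in exon 1 of *Dmrt1* (chr19:25506073-25506162), *Dmrt3* (chr19:25610883-25610972), *Dmrta1* (chr4:89688564-89688653) and *Dmrtb1* (chr4:107684055-107684144). It lies in exon 2 of *Dmrt2* (chr19:25673818-25673907), *Dmrta2* (chr4:109980067-109980156) and *Dmrtc2* (chr7:24872605-24872694). *Dmrtb1* is on the minus strand and the other 6 are on the plus strand, and each line reads 5′ to 3′ along the coding strand.
Dmrt1: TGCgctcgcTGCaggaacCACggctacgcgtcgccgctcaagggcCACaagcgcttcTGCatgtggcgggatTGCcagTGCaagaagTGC
Dmrt2: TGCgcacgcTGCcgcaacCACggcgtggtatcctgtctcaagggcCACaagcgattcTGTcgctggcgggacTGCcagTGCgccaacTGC
Dmrt3: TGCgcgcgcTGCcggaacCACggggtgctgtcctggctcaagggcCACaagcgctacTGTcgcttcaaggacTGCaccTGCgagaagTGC
Dmrta1: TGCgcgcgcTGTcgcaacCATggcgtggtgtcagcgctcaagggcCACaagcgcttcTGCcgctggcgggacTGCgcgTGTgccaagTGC
Dmrta2: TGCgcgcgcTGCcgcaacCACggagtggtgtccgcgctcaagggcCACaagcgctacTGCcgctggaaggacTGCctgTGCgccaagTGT
Dmrtb1: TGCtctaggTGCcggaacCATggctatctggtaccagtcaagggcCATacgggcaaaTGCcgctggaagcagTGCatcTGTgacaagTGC
Dmrtc2: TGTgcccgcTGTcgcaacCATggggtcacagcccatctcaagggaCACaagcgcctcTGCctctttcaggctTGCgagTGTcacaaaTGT

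The search fixed the spacing and the residues of the 8 zinc-binding codons, so they stand at the same places in the 7 genes by construction. They can differ only in their last base, and the other differences lie between them. The closest pair over these 90 bases was *Dmrta1* and *Dmrta2*, with 79 identical bases (87.8%). *Dmrt2* shared 76 of 90 bases (84.4%) with each of those, and *Dmrt3* shared the same number with *Dmrta2*. *Dmrtb1* and *Dmrtc2*, the pair with roles in meiosis, shared 51 bases (56.7%), the lowest of all pairs, and 15 of 30 codons for the same residue. The heat map of identity shows the other pairs.

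**Figure D1:**
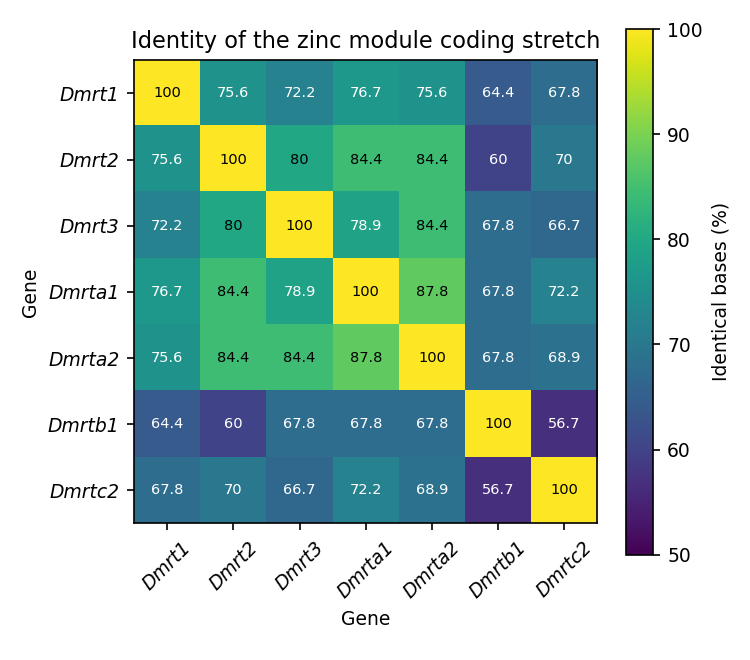
Percent of identical bases over the 90-base zinc module stretch for every pair of the 7 Dmrt genes, from GENCODE vM21 coding sequences; yellow cells are more alike and purple cells less. *Dmrt2*, *Dmrt3*, *Dmrta1* and *Dmrta2* lie between 78.9% and 87.8% of each other, and *Dmrtb1* is the most distant from *Dmrt2* (60%) and *Dmrtc2* (56.7%).

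*Dmrt1*, *Dmrt3* and *Dmrt2* form a cluster on chromosome 19 (GRCm38), all on the plus strand. *Dmrt1* (ENSMUSG00000024837) spans chr19:25505618-25604329, *Dmrt3* (ENSMUSG00000042372) begins 6207 bases beyond it and spans chr19:25610537-25623920, and *Dmrt2* (ENSMUSG00000048138) begins 48499 bases further on and spans chr19:25672420-25679010. *Dmrta1* (ENSMUSG00000043753, chr4:89679436-89694772), *Dmrtb1* (ENSMUSG00000028610, chr4:107676290-107684230) and *Dmrta2* (ENSMUSG00000047143, chr4:109978053-109983687) lie apart from one another on chromosome 4, and *Dmrtc2* (ENSMUSG00000011349, chr7:24870057-24877651) lies on chromosome 7. No exon base of a member is shared with another annotated gene, but 3 members start head to head with a gene on the other strand. These starts lie so close that the bases between them are shown here, since the partners' levels are compared further on. Capitals mark CCAAT, or ATTGG where the motif reads on the minus strand, a promoter element bound by NF-Y; the bases are from the RefSeq promoter table (GRCm38.p6), on the plus strand, which is the coding strand of all 3 members. The intervals are chr19:25672254-25672419 for *Dmrt2* and the antisense RNA RP23-82C19.2 (166 bases), chr4:109977814-109978052 for *Dmrta2* and *Dmrta2os* (239 bases), and chr7:24869942-24870056 for *Dmrtc2* and *Lypd4* (115 bases).
Dmrt2/RP23-82C19.2: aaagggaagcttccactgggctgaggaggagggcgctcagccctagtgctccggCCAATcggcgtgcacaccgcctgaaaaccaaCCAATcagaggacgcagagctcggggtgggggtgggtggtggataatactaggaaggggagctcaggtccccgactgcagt
Dmrta2/Dmrta2os: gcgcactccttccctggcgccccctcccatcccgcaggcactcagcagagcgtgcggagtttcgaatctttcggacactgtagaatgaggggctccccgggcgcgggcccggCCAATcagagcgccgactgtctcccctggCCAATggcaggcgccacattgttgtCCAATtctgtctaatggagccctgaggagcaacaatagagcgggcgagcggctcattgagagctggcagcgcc
Dmrtc2/Lypd4: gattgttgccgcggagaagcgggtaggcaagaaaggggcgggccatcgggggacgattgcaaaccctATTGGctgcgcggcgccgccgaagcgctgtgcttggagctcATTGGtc

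Searched on both strands, CCAAT stood 2 times in the *Dmrt2* interval, 3 times in the *Dmrta2* interval and 2 times in the *Dmrtc2* interval. In windows of 300 bases around the RefSeq starts, *Dmrt2* held 2 copies, *Dmrta2* 3, *Dmrtc2* 4, *Dmrt3* 1 and *Dmrta1* 0, while the 2 starts of *Dmrtb1* held 0 and 1; *Dmrt1* has no entry. The *Dmrta1* window, chr4:89687948-89688247, is at a start inside the span given above and not at its first base, as is the *Dmrtb1* window that held 0, chr4:107683540-107683839. Of all 32851 windows of that length, 37.4% held at least 1 copy, 11.7% at least 2 and 1.06% at least 4.

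Each library held 22729292 to 23550433 counts, of fragments assigned to genes without regard to strand, so that 3 counts, the floor used here, correspond to 0.127 to 0.132 CPM (counts scaled to the library totals). Over all genes, 2 of 19656 tested passed the false discovery rate (FDR) of 0.1 in edgeR's quasi-likelihood test, both lower in MUT (0.0102%). The sorted cells had the transcripts of their label, with the germ cell gene *Ddx4* at 498 ± 15.1 (WT) against 509.9 ± 17.9 CPM (MUT, SD, n = 3 each) and *Zbtb16*, a factor of undifferentiated spermatogonia, at 394 ± 84.2 against 420.4 ± 36.6. *Mcam*, the sorting marker, was at 656 ± 58.1 against 596 ± 57.3 CPM, and *Gfra1* at 135 ± 21.3 against 117 ± 14.9 CPM, both with overlapping samples. Of 10 genes of undifferentiated spermatogonia, 4 had a positive and 6 a negative log2 fold change, MUT minus WT. *Hras*, whose gene count does not tell the G12V allele from the normal one, was at 60.7 ± 4.21 CPM in WT and 66.7 ± 4.97 in MUT, with overlapping samples. At least 2 libraries stood apart in the marker transcripts of other testis cells. The 6 Leydig cell genes summed to 67.3 CPM in MUT replicate 3 and to 12.9 to 21.1 CPM in the other 5 libraries, and the 5 macrophage genes summed to 1049 CPM in WT replicate 3 and to 549.9 to 713 CPM in the other 5.

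All 7 members were detected above the floor in every library and all 7 passed the filter on low counts. None of them passed the FDR of 0.1 (adjusted p = 0.998 for each, edgeR quasi-likelihood test with Benjamini-Hochberg adjustment), and none did in DESeq2, where 9 of 37271 genes did (0.0241%). At an unadjusted p under 0.05 there was 1 member, *Dmrt2*, against 2.78% of all genes tested (1.44% lower in MUT), and the same member was the 1 whose groups did not overlap, against 7.69% of all genes tested. The log2 fold change, MUT minus WT, was positive for 4 members and negative for 3, with a median of 0.07 against 0.0066 over all genes tested. With 7 members, a single one past an unadjusted p is a description of *Dmrt2* and not a result about the family.

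The levels, by contrast, differed widely between members. Per kilobase of exon (RPKM), *Dmrt1* was far above the rest, at 179.9 to 212 RPKM over the 6 libraries, followed by *Dmrtb1* at 21.5 to 41.9, *Dmrtc2* at 6.05 to 13.3, *Dmrt2* at 5.14 to 9.38, *Dmrt3* at 4.95 to 6.55, *Dmrta2* at 0.556 to 0.911 and *Dmrta1* at 0.156 to 0.383. In every library *Dmrt1* was 4.83 to 9.09 times *Dmrtb1*, the next in the order, and supplied 74.0% to 81.5% of the family's summed RPKM. *Dmrtc2* and *Dmrt2* could not be ordered beyond their spread, nor could *Dmrt2* and *Dmrt3*: in each pair the first was higher in 5 of 6 libraries and the ranges overlapped. *Dmrt3* was 6.79 to 8.93 times *Dmrta2* in the same library, and *Dmrta2* was 2.29 to 4.69 times *Dmrta1*. Without division by exon length *Dmrt2* and *Dmrtc2* change places and the other 5 keep theirs. By mean RPKM *Dmrt1* was the 95th of the 19656 genes tested, *Dmrtb1* the 1657th and *Dmrta1* the 18442nd.

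**Figure D2:**
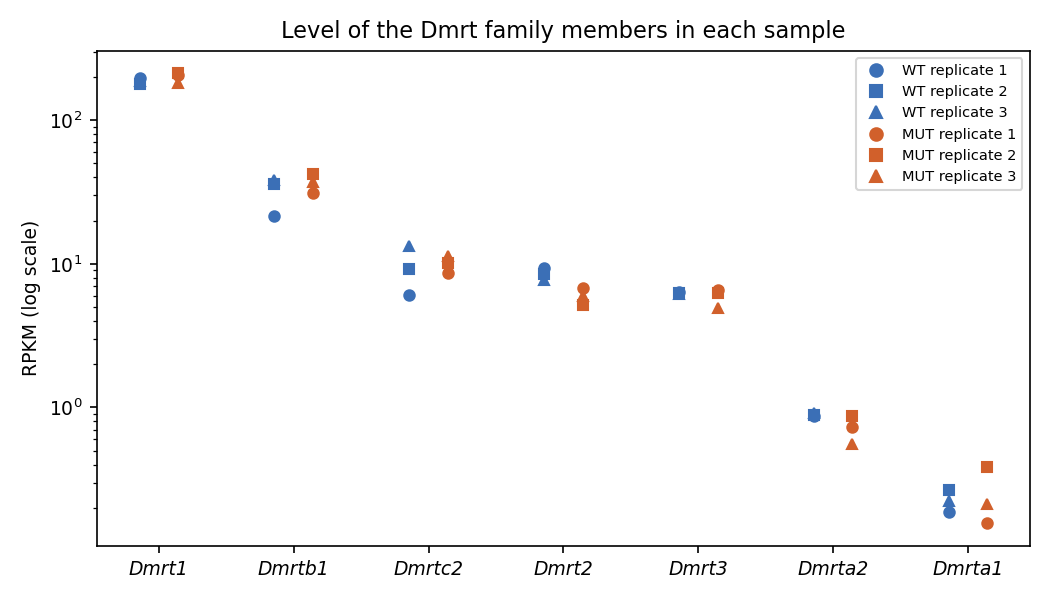
RPKM (log axis) of the 7 Dmrt genes in each WT and MUT library, ordered by level; each point is one mouse. *Dmrt1* sits at 179.9 to 212 RPKM in all 6 libraries, *Dmrtc2*, *Dmrt2* and *Dmrt3* overlap between 4.95 and 13.3, and *Dmrta1* reaches 0.383 at most.

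Among the 3 members with a role in the germ line, *Dmrt1* had the lowest coefficient of variation in both groups, 4.12% in WT and 8.51% in MUT. In the order of the replicate numbers, its count was 11594, 10920 and 11591 for the WT mice and 12286, 12706 and 10960 for the MUT mice. MUT replicates 1 and 2 lay above all WT libraries and MUT replicate 3 lay among them, so that the groups overlapped. Mean levels were 488 ± 20.1 (WT) against 519 ± 44.2 CPM (MUT, SD, n = 3 each), and the log2 fold change was 0.09 (SE 0.087, 95% confidence interval -0.11 to 0.29). It was 0.030 without MUT replicate 2, 0.046 without WT replicate 2, 0.057 without MUT replicate 1 and 0.16 without MUT replicate 3. On the linear scale the interval runs from 0.927-fold to 1.22-fold. *Dmrt1* is also a Sertoli cell gene. The 8 Sertoli cell genes together summed to 35.4 to 58.8 CPM in WT and 46.9 to 58.3 CPM in MUT. Of these, *Fshr*, the receptor that defines Sertoli cells, had the fewest counts, 2 to 5, while *Wt1* had 242 to 381. The part of Sertoli cells in the *Dmrt1* level was not tested.

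*Dmrtb1* and *Dmrtc2* differed widely among the WT mice, with coefficients of variation of 28.3% and 38.0%, and less among the MUT mice, with 14.9% and 13.6%. By replicate number, *Dmrtb1* counts were 1024, 1745 and 1877 for WT, against 1479, 2013 and 1821 for MUT. WT replicate 1 was the lowest of all 6 libraries, and the other 5 lay within 64.6 to 87.3 CPM. Mean levels were 66.2 ± 18.7 (WT) against 76.6 ± 11.4 CPM (MUT, SD, n = 3 each), with a log2 fold change of 0.21 (SE 0.20, 95% confidence interval -0.25 to 0.67). Without WT replicate 1 it was -0.01, so that its sign rests on that library; it was 0.36 without WT replicate 3 and 0.093 without MUT replicate 2. With the replicate number as a block, an assumed pairing, it was 0.24 (unadjusted p = 0.0388, adjusted p = 0.717, edgeR). That puts 2 members, *Dmrt2* and *Dmrtb1*, under an unadjusted p of 0.05 in the blocked fit, where 6.60% of all genes tested were. None of the 7 passed the FDR in that fit, which 0.0661% of genes did.

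*Dmrtc2* counts, by replicate number, were 224, 349 and 508 for WT, against 319, 377 and 429 for MUT. All 3 MUT libraries fell inside the range of the WT libraries. Mean levels were 15.4 ± 5.85 (WT) against 16.2 ± 2.20 CPM (MUT, SD, n = 3 each), with a log2 fold change of 0.07 (SE 0.25, 95% confidence interval -0.50 to 0.65). It was -0.17 without WT replicate 1, 0.39 without WT replicate 3 and -0.02 without MUT replicate 3.

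WT replicate 1 also had the lowest summed level of the 8 meiotic genes (*Sycp1*, *Sycp3*, *Dmc1*, *Spo11*, *Prdm9*, *Hormad1*, *Meiob* and *Mei1*), at 423 CPM, and WT replicate 3 the highest, at 605 CPM. WT replicate 2 was at 479 CPM and the MUT libraries were at 502, 521 and 499.6 CPM. Across the 6 libraries *Dmrtc2* went with that sum at a Pearson r of 0.912 (exact permutation p = 0.0319, 0.0639 after Benjamini-Hochberg adjustment over 4 relations) and a Spearman rho of 0.714 (exact permutation p = 0.136, adjusted 0.136). Without the 2 libraries farthest from the median of the meiotic sum r was 0.264, so that the relation rests on WT replicates 1 and 3. For *Dmrtb1* and the meiotic sum r was 0.751 (exact permutation p = 0.119, adjusted 0.119) and rho 0.771 (exact permutation p = 0.103, adjusted 0.136), with r 0.445 without the farthest 2. *Dmrtb1* and *Dmrtc2* had r 0.877 (exact permutation p = 0.0264, adjusted 0.0639) and rho 0.829 (exact permutation p = 0.0583, adjusted 0.117), with r 0.670 without the farthest 2. Each genotype has 3 libraries, too few for a value within it, and no relation passed 0.05 after adjustment. None of the 8 meiotic genes passed the FDR, and their median log2 fold change was -0.02. What moved the 2 members and the meiotic genes between WT mice was not tested.

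**Figure D3:**
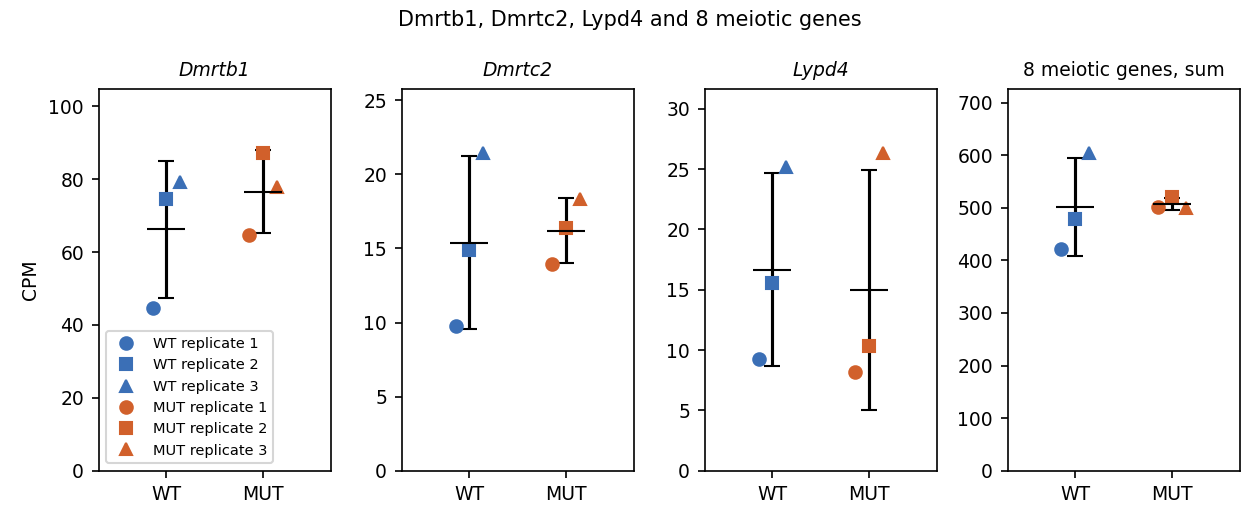
CPM in each library of *Dmrtb1*, *Dmrtc2*, *Lypd4* and the sum of 8 meiotic genes, 1 panel each with its own axis from 0; points are mice, and bars are the mean ± SD of 3 mice. WT replicates 1 and 3 hold the lowest and the highest *Dmrtc2* level (9.79 and 21.5 CPM) and the lowest and highest meiotic sum (423 and 605 CPM), and the MUT libraries lie between them for both.

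*Dmrt2* was the member with the clearest difference between genotypes. The WT mice, by replicate number, had 504, 466 and 426 counts, and the MUT mice 364, 278 and 329. Every MUT library was below every WT library, which was so for 1 of the 7 members and for 3.00% of all genes tested. Mean levels were 19.98 ± 2.01 (WT) against 14.0 ± 1.93 CPM (MUT, SD, n = 3 each), a ratio of 0.701 (95% confidence interval 0.566 to 0.869) and a log2 fold change of -0.51 (SE 0.14, 95% confidence interval -0.82 to -0.20). The unadjusted p was 0.00479 in edgeR's quasi-likelihood test and the adjusted p 0.998, so that it did not pass the FDR. The exact two-sided permutation test over the 6 libraries gave p = 0.1, the smallest that 3 against 3 can give. Leaving out each library in turn gave log2 fold changes of -0.62 to -0.43, with -0.51 without MUT replicate 3 (adjusted p = 0.342, edgeR) and -0.58 without WT replicate 3 (adjusted p = 0.999, edgeR). The replicate block gave -0.52 (adjusted p = 0.243, edgeR). In bulk RNA, fewer cells that express *Dmrt2* and less *Dmrt2* RNA per cell cannot be told apart. *Dmrt2* is one of the stem cell markers that the study plotted for these samples. The study drew those markers from published single-cell work. Of the genes it plotted, it found only *Pax7* differentially expressed, and that gene was higher in MUT. For the stem cell markers it reported a tendency to be slightly lower in MUT. The direction of *Dmrt2* here comes from the same libraries and is not a separate result.

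The other cluster genes overlapped between genotypes. *Dmrt3*, between *Dmrt1* and *Dmrt2*, had 350 counts in each WT library, against 358, 348 and 277 for the MUT mice by replicate number. In CPM, MUT replicate 3 was below every WT library, MUT replicate 1 above them all and MUT replicate 2 among them. Mean levels were 15.0 ± 0.257 (WT) against 14.2 ± 2.06 CPM (MUT, SD, n = 3 each), with a log2 fold change of -0.08 (SE 0.13, 95% confidence interval -0.38 to 0.22), which was 0.04 without MUT replicate 3. Set against *Dmrt1* in the same library, which takes library size out, the log2 ratio of *Dmrt2* to *Dmrt1* (RPKM) was -4.37, -4.40 and -4.62 in WT and -4.93, -5.36 and -4.91 in MUT. Its mean was 0.60 lower in MUT on the log2 scale (-4.46 ± 0.13 against -5.06 ± 0.26, SD, n = 3 each), with an exact two-sided permutation p of 0.1, again the smallest possible. The groups did not overlap in this ratio, so it would be lower in MUT in all 3 pairs however the mice were paired. The exact sign-flip permutation p of 0.25 for the same-numbered pairs, the smallest that 3 pairs can give, therefore adds nothing. The difference between *Dmrt2* and *Dmrt3* was not tested.

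The antisense RNA RP23-82C19.2, whose span chr19:25671134-25672253 is that of 2610016A17Rik in GENCODE vM21, starts head to head with *Dmrt2* across the 166 bases printed above. Its counts by replicate number were 55, 60 and 58 for WT, against 35, 41 and 35 for MUT. Here too every MUT library was below every WT library. Mean levels were 2.47 ± 0.0824 (WT) against 1.601 ± 0.154 CPM (MUT, SD, n = 3 each), with a log2 fold change of -0.63 (SE 0.19, 95% confidence interval -1.06 to -0.19), an unadjusted p of 0.0105 and an adjusted p of 0.998 in edgeR's quasi-likelihood test. Leaving out each library in turn gave -0.72 to -0.58. There were 0.0962 to 0.147 RP23-82C19.2 counts per *Dmrt2* count in the 6 libraries, and these ratios overlapped between the groups. Since strand was ignored in counting, reads of either strand over the RP23-82C19.2 exons are in its count; it shares no exon base with *Dmrt2*.

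**Figure D4:**
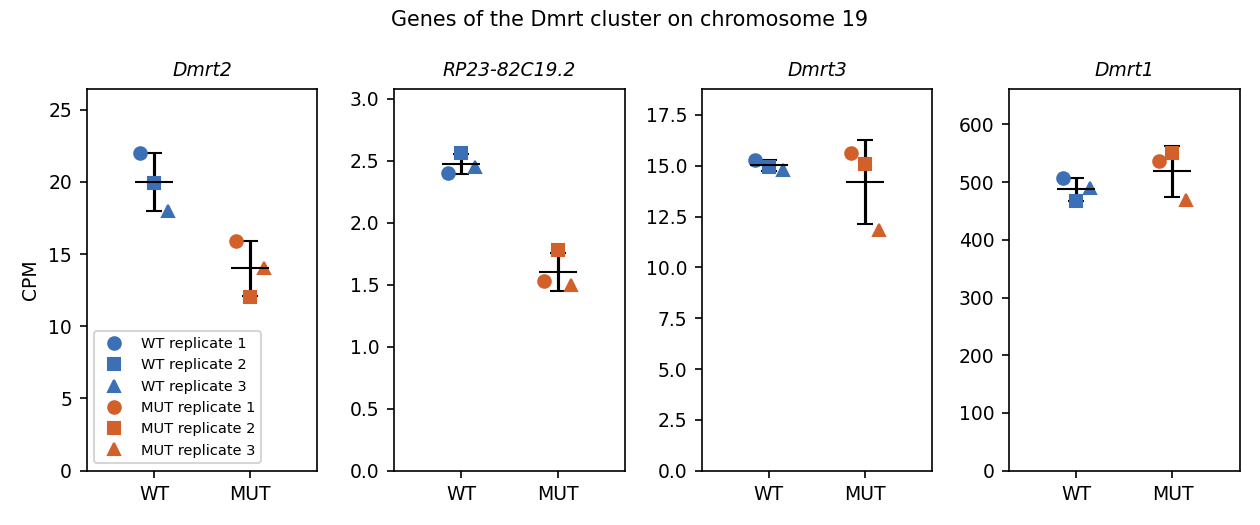
CPM in each library of *Dmrt2*, RP23-82C19.2, *Dmrt3* and *Dmrt1*, 1 panel a gene with its own axis from 0; points are mice, and bars are the mean ± SD of 3 mice. The 3 MUT libraries lie below the 3 WT libraries for *Dmrt2* (14.0 against 19.98 CPM on average) and RP23-82C19.2 (1.601 against 2.47), and the groups overlap for *Dmrt1* and *Dmrt3*.

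*Dmrta1* and *Dmrta2*, the pair with the closest zinc module, were near the limit of what these libraries can compare. *Dmrta2* counts by replicate number were 58, 61 and 63 for WT, against 49, 59 and 38 for MUT. MUT replicates 1 and 3 were below all WT libraries and MUT replicate 2 was within their range. Mean levels were 2.60 ± 0.0641 (WT) against 2.11 ± 0.468 CPM (MUT, SD, n = 3 each), with a log2 fold change of -0.30 (SE 0.22, 95% confidence interval -0.80 to 0.19). It was -0.14 without MUT replicate 3 and -0.48 without MUT replicate 2. *Dmrta1* had 18, 26 and 22 counts in WT and 15, 37 and 21 in MUT, so that the lowest and the highest library were both MUT. Its log2 fold change was 0.16 (SE 0.36, 95% confidence interval -0.66 to 0.98) and turned to -0.29 without MUT replicate 2. The interval of *Dmrta1* runs from 0.631-fold to 1.97-fold, with counts this low and a coefficient of variation of 46.8% among the MUT mice.

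**Figure D5:**
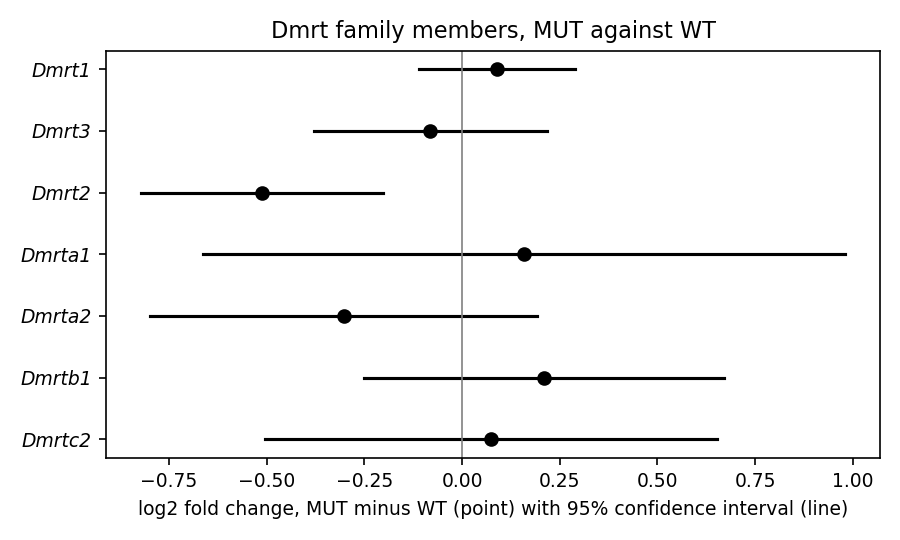
Log2 fold change, MUT minus WT, of each Dmrt gene with its 95% confidence interval from edgeR's quasi-likelihood fit; points are estimates, lines are intervals, and the vertical line is no difference. The interval leaves out 0 for *Dmrt2* (-0.82 to -0.20) and covers 0 for the other 6 members; *Dmrta1* has the widest (-0.66 to 0.98) and *Dmrt1* the narrowest (-0.11 to 0.29).

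Genes that Dmrt factors are known to act on, or beside, in the gonad were followed as a list of 11 (*Sohlh1*, *Sohlh2*, *Stra8*, *Crabp2*, *Kit*, *Zbtb16*, *Sox2*, *Sox9*, *Foxl2*, *Esr1* and *Esr2*). Of these, 10 passed the filter and none passed the FDR; 7 had a positive and 3 a negative log2 fold change, with a median of 0.10 against 0.0066 over all genes tested. *Stra8*, which retinoic acid induces ahead of meiosis and which *Dmrt1* restrains, was higher in every MUT library, with a log2 fold change of 0.28 (unadjusted p = 0.0361, edgeR, where 1.34% of all genes tested were higher at an unadjusted p under 0.05). Without MUT replicate 2 it was 0.12 (unadjusted p = 0.175, edgeR). *Sohlh2*, a transcription factor of early differentiation, was at 105 ± 3.92 CPM and 117 ± 6.70 CPM (SD, n = 3 each), also without overlap (0.16, unadjusted p = 0.0505, edgeR), where 4.69% of all genes tested were higher in every MUT library. *Kit*, the receptor of differentiating spermatogonia, had a log2 fold change of 0.36 with overlapping libraries (unadjusted p = 0.0497, edgeR), which was 0.16 without MUT replicate 2 (unadjusted p = 0.252). *Kit* was higher in MUT in all 3 same-numbered comparisons. The replicate block, which assumes that the numbers pair the mice, gave 0.35 (unadjusted p = 0.00121, adjusted p = 0.243, edgeR). In that fit 6.60% of all genes tested had an unadjusted p under 0.05. *Sohlh1*, which *Dmrt1* is known to activate, was at 160 ± 9.21 CPM in WT and 172 ± 14.3 CPM in MUT, with overlap. *Foxl2*, the ovarian factor that *Dmrt1* keeps silent in Sertoli cells, had 4 to 10 counts.

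*Dmrt2* was also set beside a list of 12 stem-state genes of A_undiff (*Gfra1*, *Ret*, *Etv5*, *Id4*, *Bcl6b*, *Lhx1*, *Eomes*, *T*, *Nanos2*, *Pdx1*, *Foxc2* and *Egr2*). The list was chosen with earlier results of these data known, and it leaves out *Pax7*, which the study reported as higher in MUT. Of the 10 genes of undifferentiated spermatogonia, 6 had negative log2 fold changes. The 4 with positive ones, *Lin28a*, *Sall4*, *Cdh1* and *Zbtb16*, are outside this list. None of the 12 passed the FDR, all 12 log2 fold changes were negative, as were 9465 of the 19656 genes tested, and the median was -0.24 against 0.0066. This median was -0.12 without MUT replicate 2 and -0.38 without MUT replicate 1. The 12 genes summed to 821 to 1093 CPM in WT and 761 to 1013 CPM in MUT, with overlap. At an unadjusted p under 0.05 there were 3 lower (1.44% of all genes), and 2 were lower in every MUT library (3.00% of all genes); several, *Foxc2*, *Egr2* and *Gfra1* among them, are markers the study plotted for these samples. *Foxc2*, a forkhead factor of quiescent spermatogonial stem cells, was at 64.1 ± 3.73 CPM in WT and 46.6 ± 7.35 CPM in MUT (SD, n = 3 each), with a log2 fold change of -0.46 (unadjusted p = 0.00365, edgeR). *Egr2*, a zinc finger factor, had a log2 fold change of -0.30 (unadjusted p = 0.0173, edgeR), and it and *Foxc2* were lower in every MUT library, while *T* (brachyury) had -0.39 (unadjusted p = 0.0439, edgeR) with overlap. Without MUT replicate 3 *Egr2* was at -0.19 (unadjusted p = 0.0522, edgeR), and *T* was at -0.26 without MUT replicate 2 (unadjusted p = 0.126) and -0.28 without WT replicate 2 (unadjusted p = 0.150). Of the 10582 other genes with a mean of at least 10 CPM, *Foxc2* was the one whose log2 CPM over the 6 libraries was most like that of *Dmrt2* (Pearson r 0.980), followed by *Nmi* (0.979) and *Msantd2* (0.974). All 3 are the highest of many correlations over 6 points, and libraries of one genotype share its mean.

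Summed levels of cell type markers were followed beside these values. In bulk RNA such sums do not tell cell number from RNA per cell, and the part of cell content was not tested. The 5 genes of differentiating spermatogonia (*Kit*, *Stra8*, *Sohlh1*, *Sohlh2* and *Dnmt3b*) all had positive log2 fold changes (median 0.16). They summed to 701 to 754 CPM in WT and 770 to 932 CPM in MUT. All but *Dnmt3b* are also in the list of 11 above, so the lists are not separate results. The 10 genes of undifferentiated spermatogonia summed to 2086 to 2678 and 2308 to 2715 CPM (median -0.09, and 0.003 without MUT replicate 2). They share *Gfra1*, *Ret*, *Id4* and *Etv5* with the stem-state list and *Zbtb16* with the list of 11. Of the 10, *Lin28a* was higher in every MUT library (0.26, unadjusted p = 0.00861, edgeR), as 4.69% of all genes tested were. The 4 germ cell genes summed to 2057 to 2081 CPM in WT and 2023 to 2153 CPM in MUT (median 0.02). The 5 macrophage genes summed to 617 to 1049 CPM in WT and 549.9 to 685 CPM in MUT (median -0.31, and -0.13 without WT replicate 3), the 4 endothelial genes to 36.4 to 49.6 and 36.6 to 44.5 CPM (median -0.07), and the 4 peritubular myoid genes to 6.99 to 8.11 and 8.02 to 11.4 CPM (median 0.25, and 0.015 without MUT replicate 3). The median of the 7 Sertoli cell genes tested was 0.06, and -0.05 without MUT replicate 2, 0.17 without MUT replicate 3 and 0.37 without WT replicate 3. Of these, *Wt1* (0.36, unadjusted p = 0.0428, edgeR) and *Gata4* (0.19) were higher in every MUT library, against 4.69% of all genes tested, and *Wt1* was at 0.19 without MUT replicate 2 (unadjusted p = 0.215, edgeR). The median of the 5 Leydig cell genes tested was 0.98 and turned to -0.67 without MUT replicate 3. No gene of these lists passed the FDR.

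*Dmrtc2* and *Lypd4*, a gene of the Ly6 family transcribed in the testis, start 116 bases apart on opposite strands. *Lypd4* counts by replicate number were 212, 364 and 596 for WT, against 188, 238 and 617 for MUT. Replicate 3 was the highest library for both genes in either group. The means of *Lypd4* were 16.7 ± 8.02 CPM and 15.0 ± 9.93 CPM (SD, n = 3 each), with a log2 fold change of -0.15 (95% confidence interval -1.23 to 0.92), which was -0.84 without MUT replicate 3 (unadjusted p = 0.0469, adjusted p = 0.568, edgeR) and 0.27 without WT replicate 3. Across the 6 libraries *Lypd4* and *Dmrtc2* had a Pearson r of 0.765 (exact permutation p = 0.0653, adjusted 0.0870) and a Spearman rho of 0.829 (exact permutation p = 0.0583, adjusted 0.117), and r 0.792 without the farthest 2. *Dmrta2os*, the antisense partner of *Dmrta2*, had 4 to 8 counts, too few for a comparison. Of the 13 annotated genes within 100 kb of a member that had at least 10 counts in a library, 12 were tested. Among these 12, RP23-82C19.2 was the 1 with an unadjusted p under 0.05 (2.78% of all genes tested) and the 1 whose groups did not overlap (7.69%). The 13th, RP24-158L15.3, which lies 49794 bases from *Dmrtc2*, did not pass the filter. It had 2, 4 and 4 counts in WT against 8, 15 and 10 in MUT, without overlap, with WT replicate 1 under the floor of 3 counts. Of all genes tested, 4.69% were higher in every MUT library. With no filter the log2 fold change of RP24-158L15.3 was 1.703 (unadjusted p = 0.00573, adjusted p = 0.940, edgeR), where 1083 of 37285 genes had an unadjusted p under 0.05. AC161441.7, 29782 bases from *Dmrtc2*, was at -0.51 (unadjusted p = 0.0768, edgeR). Its unadjusted p was under 0.05 in 5 of the 10 alternatives: no filter (0.0283), DESeq2 (0.0335), the replicate block (0.00427), and without WT replicate 2 (0.0320) or MUT replicate 3 (0.00370). In those fits, in the same order, 1083 of 37285, 438 of 37271, 1297 of 19656, 654 of 20209 and 1736 of 20085 genes were under 0.05. The last is also the fit of the *Lypd4* value without MUT replicate 3.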

How the data were processed

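RNA from sorted tdTomato-positive, MCAM-bright cells of 3 WT and 3 MUT mice was made into stranded mRNA libraries. The authors deposited raw counts of read pairs per gene name, made with featureCounts 1.6.2 on GRCm38.p6 with GENCODE M17 and tdTomato added, ignoring strand and leaving out multi-mapping and ambiguous fragments; the submitters' processing notes also name STAR and FastQC. In R 4.3.3, edgeR 4.0.16 (filterByExpr, TMM, quasi-likelihood test, genotype only) tested 19656 genes, with Benjamini-Hochberg adjustment over all of them at an FDR of 0.1; the script was tested on simulated data. CPM is TMM-normalized, and RPKM divides it by the deposited exon length. Alternatives were no filter, DESeq2 size factors, the study's tool DESeq2 (here 1.42.0), the replicate number as a block, and each sample left out. The titles number the mice 1 to 3 in both groups and controls were littermates, but no label states which mice shared a litter. Same-numbered deviations from the group means correlated across 10583 genes above 10 CPM (r 0.313, 0.174 and 0.394). Deviations of different numbers were not compared. The numbers were therefore used only as an assumed pairing, in the replicate block and the same-numbered comparisons. Replicates are separate mice, and all replicate pairs differed by more than sampling noise (chi-square per degree of freedom 4.26 to 24.5). The members, the gene lists and the 4 relations were chosen with earlier results of these data known. Named genes were the members, their neighbours within 100 kb with at least 10 counts in a sample, the 3 most similar genes for each member of at least 1 CPM, and list genes with an unadjusted p under 0.05, with groups that did not overlap, or defining a cell type. The floor covers counting error only.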

Additional observations from a re-analysis of the deposited data

How the results depend on the processing

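The number of members past the FDR was 0 under all 10 alternatives, and so was the number of list genes. The number of all genes past it was 2 in the reported fit, 5 with no filter on low counts, 9 with DESeq2 and 13 with the replicate block. It was 0 to 6 when single libraries were left out. Without MUT replicate 2 it was 0, and 292 genes had an unadjusted p under 0.05 in edgeR. Without MUT replicate 3 it was 6, and 1736 genes had an unadjusted p under 0.05 in edgeR. It was 1 without MUT replicate 1 and 5 without WT replicate 3. *Dmrt2*, RP23-82C19.2, *Dmrt1* and *Dmrta2* kept their sign under all 10, and the lowest adjusted p of *Dmrt2* was 0.243 (edgeR, replicate block). The sign of other log2 fold changes turned in leave-one-out fits, which ranged from -0.16 to 0.035 for *Dmrt3*, -0.29 to 0.40 for *Dmrta1*, -0.014 to 0.36 for *Dmrtb1*, -0.17 to 0.39 for *Dmrtc2* and -0.84 to 0.27 for *Lypd4*, which was positive without WT replicate 3 or MUT replicate 1 or 2; the cause was not tested. The replicate block changed no call of a member. Without division by length 5 of 7 members kept their place in the order. *Dmrta1*, with 15 to 37 counts a library, had the fewest counts of the members.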

Other observations

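The X-linked *Dmrtc1* group, relatives of the family that were not among its 7 members, had low counts. *Dmrtc1a* had 33 to 63 counts and *Dmrtc1b* 15 to 35 in the 6 libraries, with overlapping groups and log2 fold changes of 0.03 and -0.28, while *Dmrtc1c1* and *Dmrtc1c2* had 0 or 1 count, under the floor of 3. These genes are near-identical copies, and fragments that map to more than one of them were left out, so their counts are uncertain.

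The genes most like each member over the 6 libraries, of 10582 or 10583 compared, were given above for *Dmrt2*. For *Dmrtc2* they were *Smim8* (Pearson r 0.994), *Syce1*, which encodes a synaptonemal complex protein (0.991), and *Primpol* (0.990), and for *Dmrtb1* they were *Fam234a* (0.997), *Zfp414* (0.991) and the germ cell helicase gene *Ddx43* (0.987). For *Dmrt1* they were *Gsr* (0.978), *Aplf* (0.977) and *Eif4ebp1* (0.975), for *Dmrt3* *Trim41* (0.996), *Rhot1* (0.984) and *Ccdc71l* (0.978), and for *Dmrta2* *Cnot6* (0.996), *Sertad1* (0.981) and *Rbm18* (0.974). Each is the highest of that many correlations on 6 points that share libraries and depth.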
